A study of Mus musculus with 6 samples.

Results

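The circadian clock genes described here are 10 mouse genes of the core clock loop, chosen by name: Arntl, Clock, Per1, Per2, Per3, Cry1, Nr1d1, Nr1d2, Dbp and Ciart. They are 10 of the 35275 genes in the count table of a bulk RNA-seq experiment on whole spinal cord. Their levels were compared between 3 Sox2 cKO mice and 3 Ctrl mice, 1 library per mouse. The labels give the genotypes as mGfap-Cre:Sox2fl/fl for Sox2 cKO and mGfap-Cre:Sox2+/+ for Ctrl, whereas the series design lists mGfap-Cre or Sox2fl/fl controls and the study's methods Sox2fl/fl littermates. All mice had a C57BL/6 background, received no treatment named in the labels, and were P90 in the labels and P80 in the design. The mouse Gfap promoter drives Cre in this line and removes Sox2 mainly from astrocytes, so the other cells of the cord keep the gene. Because RNA came from whole tissue, fewer cells of a type and less RNA per cell cannot be told apart.

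In the mammalian clock, the heterodimer of CLOCK and BMAL1 (the product of Arntl) binds E-box elements and activates the Per, Cry, Nr1d and Dbp genes. PER and CRY proteins return to the nucleus and inhibit that activation, and the REV-ERB receptors encoded by Nr1d1 and Nr1d2 repress Arntl through RORE elements. Arntl mRNA therefore peaks in a phase opposite to that of Dbp and the Nr1d genes in most tissues, and astrocytes are known to run a clock of their own. The mice were kept on a light/dark cycle, and the time of day at which each cord was taken is not given in the sources used here. All mice were perfused under ketamine and xylazine before dissection.

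The elements through which the loop acts can be read in the upstream sequences of several members, so 5 of them are shown before the values. RefSeq promoters on GRCm38.p6 were found for 9 of the 10 genes, Per2 being the exception. Only bases upstream of annotated exons are printed, 5′ to 3′ on the gene's own strand. Capitals mark an E-box (CACGTG), its variant CACGTT, a D-box (TTATGTAA or TTATGCAA) or the RORE core (TNGGTCA), on either strand.
Per1 (chr11:69098699-69098947, plus strand): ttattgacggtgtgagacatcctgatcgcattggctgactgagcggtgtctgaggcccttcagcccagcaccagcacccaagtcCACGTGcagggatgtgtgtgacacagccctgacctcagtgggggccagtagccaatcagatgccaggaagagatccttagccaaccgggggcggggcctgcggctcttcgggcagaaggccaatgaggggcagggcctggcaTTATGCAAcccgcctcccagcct
Cry1 (chr10:85185065-85185304, minus strand): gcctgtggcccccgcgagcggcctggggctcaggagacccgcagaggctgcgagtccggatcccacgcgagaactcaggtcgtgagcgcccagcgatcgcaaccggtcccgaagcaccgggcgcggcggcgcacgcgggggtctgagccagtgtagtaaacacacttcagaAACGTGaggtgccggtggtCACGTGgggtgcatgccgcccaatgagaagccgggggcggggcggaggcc
Ciart (chr3:95882252-95882478, minus strand): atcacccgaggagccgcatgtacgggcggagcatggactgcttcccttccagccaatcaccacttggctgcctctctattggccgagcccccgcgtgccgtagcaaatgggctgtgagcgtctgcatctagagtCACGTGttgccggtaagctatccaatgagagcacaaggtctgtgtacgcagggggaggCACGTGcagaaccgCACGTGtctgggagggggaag
Per3 (chr4:151044666-151044915, minus strand): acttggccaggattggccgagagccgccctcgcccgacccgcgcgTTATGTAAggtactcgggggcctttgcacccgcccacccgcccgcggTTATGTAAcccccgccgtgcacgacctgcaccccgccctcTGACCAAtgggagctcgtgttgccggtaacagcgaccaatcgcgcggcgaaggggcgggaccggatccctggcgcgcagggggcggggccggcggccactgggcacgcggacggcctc
Arntl (chr7:113207215-113207464, plus strand): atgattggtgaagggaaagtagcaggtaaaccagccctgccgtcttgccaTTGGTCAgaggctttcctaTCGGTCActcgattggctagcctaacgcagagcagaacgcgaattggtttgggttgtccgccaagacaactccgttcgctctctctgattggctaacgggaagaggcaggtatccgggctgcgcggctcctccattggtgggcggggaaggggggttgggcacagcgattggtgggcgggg

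The E-box CACGTG was present in 3 of the 9 genes with a promoter, namely Per1, Cry1 and Ciart, and in 7.15% of the 32817 promoters of the genome-wide table. The 9 genes had 13 promoters, and a gene was counted if any of its promoters matched. Shares of all promoters count each promoter, so the 2 measures are not alike. Ciart held 3 copies, beginning 116, 58 and 44 bases upstream of its start site, Cry1 held 1 at 60 bases and Per1 held 1 at 166 bases. The variant CACGTT lay in Cry1, 79 bases upstream, and in Nr1d1, 28 bases upstream, against 4.69% of all promoters. D-boxes, the sites of DBP and its relatives TEF and HLF, were found in Per3, 205 and 158 bases upstream, and in Per1, 24 bases upstream, whereas 1.66% of all promoters held one. The RORE core was found in the Arntl promoter printed above, 200 and 181 bases upstream, and once in Per3, 118 bases upstream. Arntl has another listed promoter, with a start site further downstream. It held the same 2 matches and a further one, TAGGTCA, 30 bases downstream of its start site, which is not printed above. Of all promoters, 11% held the RORE core. The cyclic AMP element TGACGTCA was matched in 0 of the 9 genes and in 1.79% of all promoters. These matches describe letters in a window of fixed size and were not tied to the expression values.

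Sox2 itself was checked first. It measured 19.9, 14.8 and 29.5 TMM-normalized CPM (counts scaled to the effective library size) in Ctrl, and 3.16, 2.69 and 2.98 CPM in Sox2 cKO. Here and below, Ctrl values follow the order of libraries 2, 4 and 6, and Sox2 cKO values the order of libraries 1, 3 and 5. The groups did not overlap, and the log2 fold change of Sox2 cKO over Ctrl was -2.86 ± 0.24 (SE, adjusted p = 0.000956, edgeR quasi-likelihood test). Libraries held 21507911 to 28392184 counts with overlapping depth between groups. Of 8 Hox genes of trunk level, which mark spinal cord position, 7 passed the filter on low counts, and their summed level was 477.6 to 529.2 CPM in Ctrl and 479.9 to 525.4 CPM in Sox2 cKO.

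All 10 clock genes passed the filter on low counts, with 200 to 4043 counts per library. Only Clock was called, at a lower level in Sox2 cKO, which makes 1 of 10 members against 24.6% of the 16137 genes tested (12.4% lower and 12.2% higher). DESeq2 also called Clock alone, where 14.6% of all genes were called lower and 12.6% higher. An unadjusted p below 0.05 was found for 1 member and for 39.6% of all genes. Estimates were negative for 5 members and positive for 5, their median log2 fold change was -0.05 against 0.02 for all genes, and 9 of 10 members changed by less than 0.3 in size compared with 58.6% of all genes. The 95% intervals of 9 members lay within 0.6 on the log2 scale of no change, a 1.52-fold difference in either direction. Clock was the exception, and the median SE of a member was 0.118. Without overlap between the groups were Clock and Cry1, 2 of 10 and both lower in Sox2 cKO, whereas 44.7% of all genes had groups that did not overlap, 22.1% of them lower and 22.6% higher as shares of all genes.

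**Figure D1:**
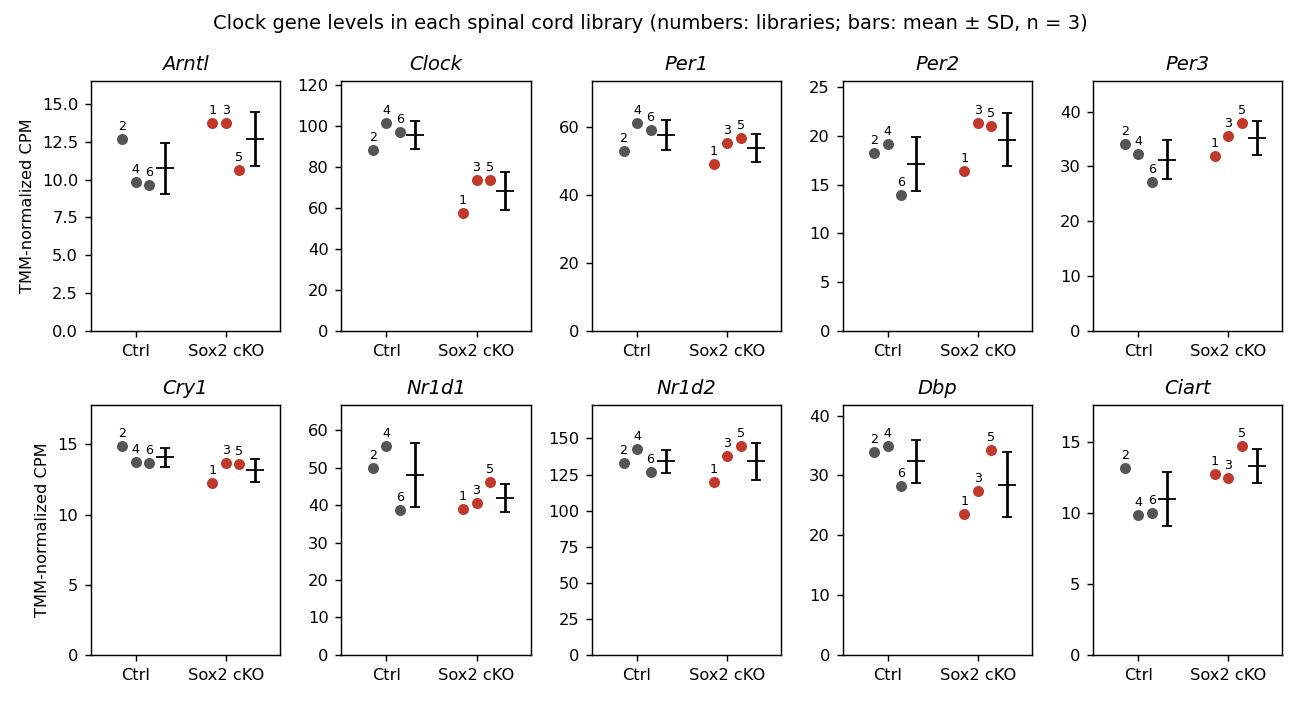
TMM-normalized CPM of each clock gene (y axis, starting at 0) in the 3 Ctrl libraries (grey) and the 3 Sox2 cKO libraries (red), numbered by library, with the group mean and SD beside them. The groups are separate for Clock, with Sox2 cKO at 57.8 to 74.0 CPM and Ctrl at 88.3 to 101.7 CPM, are separate by a narrow margin for Cry1, and overlap for the other 8 genes.

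Clock encodes the histone acetyltransferase partner of BMAL1. Its level was 88.3, 101.7 and 97.2 CPM in Ctrl and 57.8, 74.0 and 73.6 CPM in Sox2 cKO. All 3 Sox2 cKO values fell below the lowest Ctrl value, and Sox2 cKO library 1 was the lowest of the 6. The log2 fold change was -0.48 ± 0.11 (SE, 95% interval -0.72 to -0.25, adjusted p = 0.0148, edgeR), and DESeq2 gave -0.49 (adjusted p = 0.000572). Clock is the longest member, with a length of 7478 bases recovered from the deposited values, and the trend of level against gene length differed between the groups by -0.28 on the log2 scale at that length. After this trend was removed in each library, the difference was -0.20 ± 0.07 (SE, adjusted p = 0.0762) and no longer passed the threshold, which 13.1% of all genes then did, 6.99% of them in the lower direction as a share of all genes. Leaving out Ctrl library 4 gave an adjusted p of 0.0720 and leaving out Sox2 cKO library 1 gave 0.0656, while 26 and 8 genes respectively were called among all genes in those fits. With DESeq2 Clock was called in each fit without a library.

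Arntl, which encodes BMAL1, measured 12.7, 9.85 and 9.65 CPM in Ctrl against 13.7, 13.7 and 10.7 CPM in Sox2 cKO. Ctrl library 2 lay among the Sox2 cKO libraries and Sox2 cKO library 5 near the remaining Ctrl libraries, so the groups overlapped. The log2 fold change was 0.24 ± 0.15 (SE, 95% interval -0.09 to 0.58, adjusted p = 0.26, edgeR). The 2 genes of the activator heterodimer thus had estimates of opposite sign, and only that of Clock was called.

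The Period genes encode the PER proteins of the inhibitory complex. Per1 was 52.9, 61.4 and 59.1 CPM in Ctrl and 49.1, 55.5 and 56.9 CPM in Sox2 cKO, in the order given above. Per2 was 18.3, 19.1 and 13.95 CPM in Ctrl and 16.4, 21.3 and 20.97 CPM in Sox2 cKO. Per3 was 34.2, 32.3 and 27.2 CPM in Ctrl and 31.9, 35.6 and 38.0 CPM in Sox2 cKO. In all 3 genes the groups overlapped, and for Per2 and Per3 the lowest Ctrl value came from library 6. The log2 fold changes were -0.10 ± 0.09 for Per1 (SE, adjusted p = 0.425), 0.19 ± 0.14 for Per2 (adjusted p = 0.339) and 0.17 ± 0.11 for Per3 (adjusted p = 0.265), all in edgeR. With the length correction Per3 came to 0.38 ± 0.11 (SE, adjusted p = 0.0495) and was called higher, where 6.08% of all genes were called higher. Per2 came to 0.39 (adjusted p = 0.083) and Per1 to 0.01 (adjusted p = 0.92) in that fit.

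Cry1 encodes a cryptochrome, the strongest repressor of the PER and CRY complex. It stood at 14.8, 13.7 and 13.7 CPM in Ctrl and 12.2, 13.6 and 13.6 CPM in Sox2 cKO. The groups did not overlap, but 4 of the 6 libraries lay between 13.6 and 13.7 CPM. The log2 fold change was -0.10 ± 0.11 (SE, 95% interval -0.33 to 0.14, adjusted p = 0.526, edgeR), and the exact two-sided permutation test gave p = 0.1, the smallest that 3 against 3 libraries allow. Ciart encodes CHRONO, a further repressor of CLOCK and BMAL1. It stood at 13.2, 9.85 and 9.99 CPM in Ctrl and at 12.8, 12.5 and 14.7 CPM in Sox2 cKO, where only Ctrl library 2 reached the Sox2 cKO range. Its log2 fold change was 0.27 ± 0.14 (SE, 95% interval -0.04 to 0.59, adjusted p = 0.18, edgeR), and without Ctrl library 2 it was 0.42 (adjusted p = 0.0251).

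Nr1d1 and Nr1d2 encode REV-ERB alpha and beta, the repressors of Arntl. Nr1d1 was 49.8, 55.7 and 38.7 CPM in Ctrl and 39.1, 40.5 and 46.2 CPM in Sox2 cKO. Ctrl library 6 was the lowest of the 6, so the groups overlapped, and the log2 fold change was -0.20 ± 0.13 (SE, adjusted p = 0.276, edgeR). Nr1d1 shares 263 exon bases with Thra on the opposite strand, and whether the counting used strand is not given in the sources used here, so reads from that stretch cannot be told apart between the genes. Thra, a thyroid hormone receptor gene, had a mean of 259.2 CPM in Ctrl and 244.2 CPM in Sox2 cKO (log2 fold change -0.09, adjusted p = 0.418, edgeR). Nr1d2 was 132.9, 142.5 and 126.9 CPM in Ctrl and 120.0, 137.9 and 144.5 CPM in Sox2 cKO. Both group means were 134.1 CPM, with an SD of 7.84 in Ctrl and 12.7 in Sox2 cKO, and the 95% interval of the log2 fold change ran from -0.20 to 0.20 (adjusted p = 0.997, edgeR).

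Dbp encodes a PAR bZIP transcription factor and is an output gene with a large daily amplitude in most tissues. Its level was 33.96, 34.8 and 28.3 CPM in Ctrl and 23.6, 27.5 and 34.3 CPM in Sox2 cKO. Sox2 cKO library 5 was as high as the Ctrl libraries 2 and 4, and Ctrl library 6 was close to Sox2 cKO library 3. The log2 fold change was -0.19 ± 0.14 (SE, 95% interval -0.49 to 0.12, adjusted p = 0.339, edgeR), and -0.38 (adjusted p = 0.102) with the length correction. Dbp shares 539 exon bases with Sphk2, a sphingosine kinase gene on the opposite strand whose log2 fold change was 0.13 (adjusted p = 0.378).

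**Figure D2:**
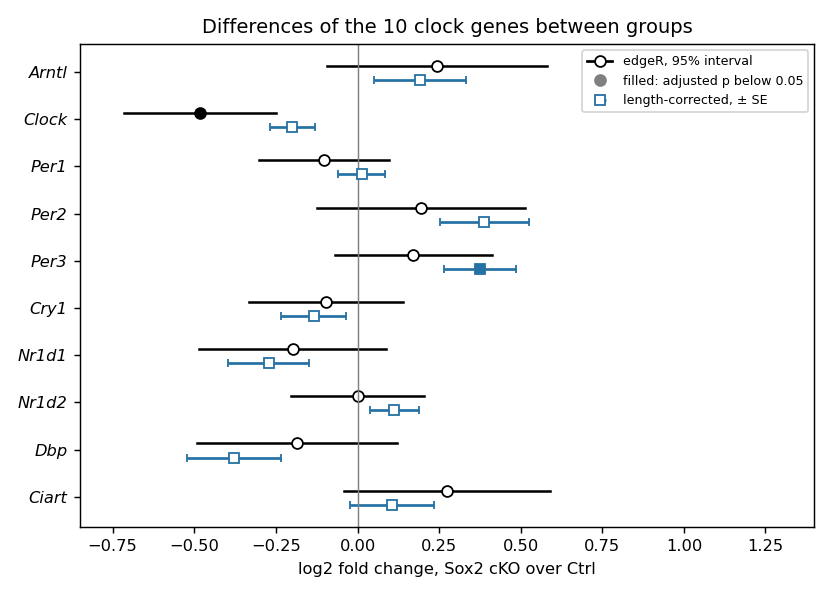
Log2 fold change of Sox2 cKO over Ctrl (x axis) for each clock gene, from edgeR with its 95% interval (black circles) and after the length correction with its SE (blue squares), filled where the adjusted p was below 0.05. Clock is called at -0.48 without the correction and Per3 at 0.38 with it, and no other member is called in either fit.

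Because Arntl and Dbp peak in opposite phases, their ratio within a library is a summary of the loop that does not depend on library scaling. The trend against gene length was not removed from this ratio, and the lengths are 1789 bases for Dbp and 2904 bases for Arntl. With the length correction the log2 fold changes were -0.38 for Dbp and 0.19 for Arntl. The log2 ratio of Dbp to Arntl FPKM was 2.12, 2.52 and 2.25 in Ctrl and 1.48, 1.70 and 2.38 in Sox2 cKO. Means were 2.30 ± 0.21 (SD, n = 3) in Ctrl and 1.85 ± 0.47 (SD, n = 3) in Sox2 cKO. Sox2 cKO libraries 1 and 3 were below every Ctrl library, whereas Sox2 cKO library 5 lay inside the Ctrl range. The difference of -0.44 was smaller in size than the SD within Sox2 cKO but larger than that within Ctrl. It is given as a description without a test. It was -0.25 without Sox2 cKO library 1 and -0.71 without Sox2 cKO library 5, and between -0.53 and -0.33 without any other library.

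Levels of different members can be compared only per length, and FPKM (counts scaled by gene length and library total, made by the authors) was used for this. Nr1d2 was the most abundant member at 28.7 FPKM averaged over the 6 libraries, followed by Dbp at 16.9, Nr1d1 at 16.5, Per1 at 11.9 and Clock at 10.9 FPKM. Ciart averaged 6.30, Per3 5.54, Cry1 4.51, Arntl 4.06 and Per2 3.15 FPKM. The library ranges left a gap between Nr1d2 and Dbp, between Nr1d1 and Per1, and between Clock and Ciart. The other neighbours in this order overlapped in their ranges, although Per3 exceeded Cry1, and Arntl exceeded Per2, in 6 of 6 libraries. The 3 members with the highest levels were the REV-ERB genes and Dbp.

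Members also varied between mice of the same group. Ctrl library 6 was the lowest Ctrl library for Per2, Per3, Nr1d1, Nr1d2 and Dbp, by 0.28, 0.19, 0.30, 0.08 and 0.19 below the Ctrl mean on the log2 CPM scale. Sox2 cKO library 1 was the lowest of its group for the same 5 genes, by 0.24, 0.14, 0.10, 0.16 and 0.25 below the Sox2 cKO mean. Arntl deviated otherwise only within Sox2 cKO, since library 5 was its lowest Sox2 cKO library and the highest for Dbp. Within Ctrl, library 6 was the lowest for Arntl too, at 0.14 below the Ctrl mean. Sox2 cKO library 1 was also the lowest of its group for Clock, Per1 and Cry1.

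**Figure D3:**
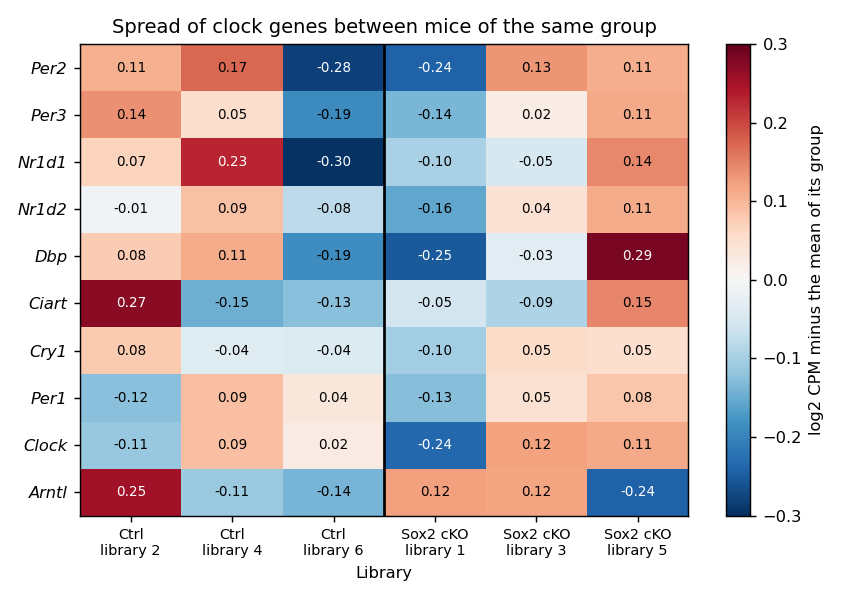
Log2 CPM of each clock gene (rows) in each library (columns) minus the mean of its group, in red above and blue below that mean. Per2, Per3, Nr1d1, Nr1d2 and Dbp share low values in Ctrl library 6 and Sox2 cKO library 1. Arntl is low in Sox2 cKO library 5, where Dbp is highest, and is also low in Ctrl library 6, as Dbp is.

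As a description over the 6 libraries after removal of the group means, the 10 pairs among Per2, Per3, Nr1d1, Nr1d2 and Dbp had Pearson r between 0.741 and 0.918 with a median of 0.846. These 5 genes were put together after their values were seen, so a high r among them was built in. The other 35 pairs of members had a median r of 0.332. The highest r of all 45 pairs lay outside the 5 genes, at 0.943 for Clock with Per1 (0.62 with the length correction). With the length correction the medians of the 10 and the 35 pairs were 0.805 and 0.479. The lowest of the 10 pairs, Per3 with Dbp, fell to 0.455 from 0.883. Dbp had an r of -0.37 with Arntl, and the median r of Dbp with all 13322 ranked genes was 0.0633. The points of a pair share their libraries, and with 6 of them many genes reach a high r.

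Genes outside the clock set were ranked by the same measure among 13313 genes with a mean count of at least 50. Those most like Dbp were Il1rap (r = 0.9997), Fut8 (0.996), Sertad2 (0.989), Tmem67 (0.987) and Sh3d19 (0.987). Those most like Arntl were Col11a1 (0.999), 3830406C13Rik (0.997), Nts (0.997), Rmdn3 (0.995) and Luc7l3 (0.994). Sertad2, Col11a1, Nts and Luc7l3 were themselves called between the groups, with log2 fold changes of -0.30, 0.92, 0.83 and 0.48 (adjusted p = 0.0448, 0.0137, 0.0161 and 0.0356, edgeR). Among clock genes, Nr1d2 stood at an r of 0.910 and Tef at 0.794 with Dbp.

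A wider list of 25 clock-related genes held other activators, repressors, PAR bZIP genes, kinases and ubiquitin ligases. In it 5 genes were called, all lower in Sox2 cKO, which is 20% of the list against 24.6% of all genes. The median log2 fold change of the list was -0.08. The groups did not overlap for 11 of the 25 (44%), all lower in Sox2 cKO, compared with 44.7% of all genes in both directions together and 22.1% in the lower direction. An unadjusted p below 0.05 was found for 7 of the 25 and for 39.6% of all genes. Calls in the list numbered 0 without Ctrl library 4 and 0 without Sox2 cKO library 1, 2 without Ctrl library 6 and 2 without Sox2 cKO library 3, and 8 without Ctrl library 2. In the same order, those fits called 26, 8, 1082, 1359 and 6119 of the 16345 to 16590 genes tested.

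Rora and Rorb encode the nuclear receptors that activate Arntl through the RORE and oppose the REV-ERBs. Rora was 73.4, 94.3 and 93.4 CPM in Ctrl and 50.03, 65.7 and 64.7 CPM in Sox2 cKO, a log2 fold change of -0.53 ± 0.13 (SE, adjusted p = 0.0181, edgeR). Rorb was 29.6, 42.4 and 45.8 CPM in Ctrl and 24.2, 27.7 and 28.2 CPM in Sox2 cKO (-0.55 ± 0.15, SE, adjusted p = 0.0255). In both genes the groups were separate, and Ctrl library 2 was the Ctrl value nearest to the Sox2 cKO range. Bhlhe41, which encodes the repressor DEC2, was 107.4, 130.3 and 128.0 CPM in Ctrl and 83.4, 88.6 and 95.7 CPM in Sox2 cKO (-0.45 ± 0.10, SE, adjusted p = 0.0145). Gsk3b, a kinase that phosphorylates several clock proteins, was 314.7, 449.7 and 432.1 CPM in Ctrl and 198.4, 245.0 and 282.6 CPM in Sox2 cKO (-0.72 ± 0.16, SE, adjusted p = 0.0146). Btrc, a subunit of the ubiquitin ligase that targets PER proteins, was 126.9, 139.9 and 136.6 CPM in Ctrl and 102.1, 114.9 and 115.0 CPM in Sox2 cKO (-0.28 ± 0.08, SE, adjusted p = 0.0358). These 3 genes too had no overlap between groups.

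Tef, a PAR bZIP relative of Dbp, and Wee1, a cell cycle kinase under clock control, had the smallest p in their role groups and were not called in edgeR, at -0.27 (adjusted p = 0.0551) and -0.24 (adjusted p = 0.168). DESeq2 called Tef (adjusted p = 0.0223), so that 6 of the 25 were called lower with that tool, where 27.2% of all genes were called. All 5 genes called in edgeR have deposited lengths of 6133 to 10878 bases. With the length correction Rora was -0.14 (adjusted p = 0.164), Rorb -0.20 (adjusted p = 0.195) and Btrc -0.05 (adjusted p = 0.584), and none of the 3 was called. Bhlhe41 at -0.23 (adjusted p = 0.0476) and Gsk3b at -0.40 (adjusted p = 0.0343) were still called lower. Noct, a deadenylase gene of 9797 bases, was called higher at 0.47 (adjusted p = 0.0293) and is named after its values were seen. In that fit 3 of the 25 (12%) were called, against 13.1% of all genes (6.99% lower and 6.08% higher).

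**Figure D4:**
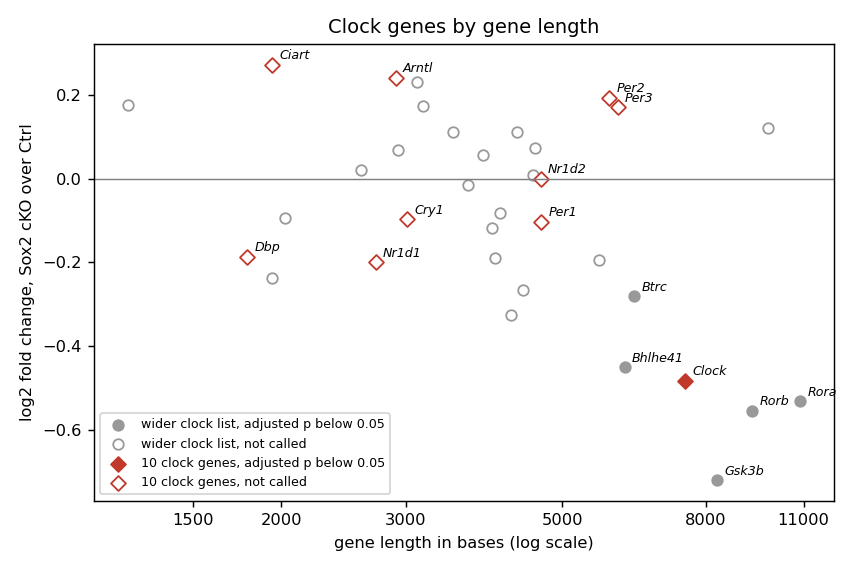
Log2 fold change of Sox2 cKO over Ctrl from edgeR (y axis) against deposited gene length in bases (x axis, log scale) for the 10 clock genes (red diamonds) and the wider clock list (grey circles), filled where called. The 6 called genes, Clock among them, all have lengths of 6133 bases or more and lie below 0.

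Agents that reset peripheral clocks act partly through glucocorticoid and immediate early genes, which were therefore listed beside the members. Of all genes tested, 24.6% were called, 12.2% of them higher as a share of all genes. Of 12 glucocorticoid-responsive genes, 2 were called (16.7%), both higher, and the median log2 fold change was 0.05. The 2 called genes were Arrdc2 at 0.61 (adjusted p = 0.0156) and Tsc22d3, which encodes GILZ, at 0.50 (adjusted p = 0.0199). Tsc22d3 is named after its values were seen. Of 10 immediate early genes, only Nr4a1 was called, higher at 0.48 (adjusted p = 0.0452), with a median of 0.28 for the list.

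Cell type markers moved with the groups as well, and their part in the clock values was not tested. Among all genes tested, 12.4% were called lower and 12.2% higher. Astrocyte markers had 5 of 10 called lower and 1, S100b at 0.71, called higher, and their summed level was 6681 to 7526 CPM in Ctrl and 5540 to 6005 CPM in Sox2 cKO. The strongest decrease among them was Slc4a4, a bicarbonate transporter gene, at -0.71 (adjusted p = 0.0125). Oligodendrocyte precursor markers had 4 of 5 called lower, with Gpr17 at -0.87, and summed to 162.0 to 183.5 CPM in Ctrl and 105.7 to 139.5 CPM in Sox2 cKO. Neutrophil markers had 5 of 6 called higher, with S100a9 at 2.36, and summed to 11.5 to 18.3 CPM in Ctrl and 22.1 to 69.8 CPM in Sox2 cKO. Summed oligodendrocyte markers overlapped between the groups, at 31660 to 35460 CPM in Ctrl and 32020 to 34510 CPM in Sox2 cKO. Microglia, neuron and endothelial markers had 1 called higher each of 7, 8 and 5, namely C1qb at 0.75, Stmn2 at 0.30 and Ly6c1 at 1.09. Estimates were negative for 5 of the 7 microglia, 5 of the 8 neuron and 1 of the 5 endothelial markers. The medians of these lists were -0.06, -0.02 and 0.32. DESeq2 called 2 microglia markers lower and 0 higher, and 2 neuron markers higher, where 14.6% of all genes were called lower and 12.6% higher. Red cell markers summed to 165.5 CPM in Ctrl library 6 and to 57.1 to 98.4 CPM in the other 5 libraries. With the length correction, 3 of 10 astrocyte markers were called lower and 0 higher (S100b adjusted p = 0.0615). In that fit 2 of 5 oligodendrocyte precursor, 1 of 8 oligodendrocyte and 1 of 7 microglia markers were called lower. Called higher were 3 of 6 neutrophil, 1 of 8 neuron and 1 of 5 endothelial markers. Of all genes, 6.99% were then called lower and 6.08% higher.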

How the data were processed

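Whole spinal cord RNA of 3 Sox2 cKO and 3 Ctrl mice was sequenced from poly(A)-selected libraries, with an RNA integrity number above 6.8 per the labels. The authors deposited gene counts made with STAR 2.5 on mm10 and HTSeq 0.6.1, per the submitters' processing notes, together with FPKM values. Whether counting used strand is not given in the sources used here. Gene lengths recovered from counts and FPKM were whole numbers, within 0.5 bases, for all 24442 genes with a count. The deposited columns carry numbers only. They were assigned to groups from the mouse numbers of a blot, and checked against the study's listed group means, which matched for 1999 of 1999 genes within a relative tolerance of 0.0001 and for 0 with the groups exchanged. Which column is which replicate is unknown. Per-sample columns left unassigned numbered 0. Gene names and positions came from GENCODE M21 (34490 of 35275 identifiers matched) and promoters from RefSeq.

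The main test of the counts was that of edgeR 4.0.16 in R 4.3.3 (filterByExpr, TMM, quasi-likelihood test without covariates, Benjamini-Hochberg adjustment over 16137 genes, threshold 0.05). All p-values called adjusted are from this test unless another tool is named. DESeq2 1.42.0, limma 3.58.1 on log2(FPKM + 1) and log2(FPKM + 0.1) where the mean FPKM was at least 0.5, other scalings and filters, leaving out each library, and a correction for gene length were alternatives. The correction removed from each library a lowess trend, with a span of 0.3, of log2 CPM against log2 length. The fits were tested on simulated data. Likeness between genes used log2 CPM with a prior count of 2. The clock members and all lists were chosen with earlier results of these data known. The genes named are all 10 members, Sox2, in the wider clock list each called gene and the smallest p of each role group, in the other lists the largest called rise and fall, and the 5 genes most like Dbp and Arntl. With the smallest permutation p at 0.1, no exact test of 1 gene can pass 0.05. P-values set the difference between the groups against the spread between these mice, which was estimated with the help of all genes tested. They cannot tell genotype from other differences between the groups.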

Additional observations from a re-analysis of the deposited data

How the results depend on the processing

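No paired analysis was possible because the deposited columns carry no replicate numbers. The count of called genes was 3970 of all genes tested, 2109 with the length correction, and 8 to 6119 when each library was left out, the lowest without Sox2 cKO library 1 and the highest without Ctrl library 2 (26 without Ctrl library 4, 1082 without Ctrl library 6 and 1359 without Sox2 cKO library 3). DESeq2 without each library, chosen after seeing the data, gave 2007 to 5761, with 2007 without Ctrl library 4, 2305 without Ctrl library 6 and 2398 without Sox2 cKO library 1. Of the 10 clock genes, 0 to 2 were called without a library (1 to 2 with DESeq2). Clock was lost without Ctrl library 4 or Sox2 cKO library 1, and Ciart was gained without Ctrl library 2. The 5 calls in the wider list became 3 with limma on log2(FPKM + 1), 3 on log2(FPKM + 0.1) and 3 with the length correction, and 0 to 8 without a library (4 to 7 with DESeq2), the lowest without Ctrl library 4 or Sox2 cKO library 1.

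Signs turned only for differences near 0. Per1 was 0.0128 with the length correction and Cry1 was 0.00014 with limma on log2(FPKM + 0.1). Nr1d2 was -0.0099 with DESeq2, -0.00994 with its size factors and -0.0566 to 0.0755 without a library. With DESeq2 it was -0.0209 without Ctrl library 2, -0.0496 without Ctrl library 6, -0.0341 without Sox2 cKO library 3 and -0.0704 without Sox2 cKO library 5. The log2 fold changes of Arntl, Clock, Per2, Per3, Nr1d1, Dbp and Ciart kept their sign in every alternative run, as did that of Sox2. Limma moved the split of calls among all genes from 2008 lower and 1962 higher to 915 and 2670 with a pseudocount of 1 and to 896 and 2614 with 0.1, and the median of all genes from 0.02 to 0.09 and 0.11. The causes were not tested.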
